A study of Mus musculus with 6 samples.

Results

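The genes of the cytosolic ribosomal proteins were followed by RNA sequencing in 6 libraries of mouse embryonic stem cells. They were taken by symbol: Rpl or Rps followed by a number, together with Rpsa and the stalk genes Rplp0, Rplp1 and Rplp2. Symbols of the kinases that act on ribosomal protein S6 and 5 symbols marked as pseudogenes were left out. Of 86 matching symbols among the 19713 genes of the table, 85 reached 10 normalized counts in 2 or more libraries. Rpl26 did not. The 85 genes comprise 51 for the large subunit, 33 for the small subunit, and Rps19bp1, which the pattern takes although it encodes a protein that binds Rps19 and is no subunit. Of the 84 ribosomal genes, 76 encode the common subunits and 8 are paralogs of them, which are related second genes.

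The cells were wild-type (WT), homozygous for a missense allele, C54Y, of the transcription factor THAP1 (C54Y, written Thap1 C54Y/C54Y in the labels), or lacking THAP1 (KO, written THAP1 -/-, by deletion of exon 2 of Thap1), with 2 libraries each. All were derived from blastocysts of the C57Bl/6 strain and were kept on a layer of irradiated mouse embryonic fibroblasts, in medium with 15% fetal calf serum and LIF, a cytokine that keeps stem cells undifferentiated, at 1000 units per ml. The labels number the libraries of each genotype replicate 1 and replicate 2 and do not say what the number stands for, or whether the libraries of a genotype are separate cultures or clones. P-values therefore rest on the spread between these libraries, which may be technical.

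A ribosome joins a small subunit, which reads the mRNA, to a large subunit, which forms the peptide bond. Each subunit holds ribosomal RNA and 1 copy of most ribosomal proteins, so their genes are usually expressed together and rank among the most abundant mRNAs of growing cells. Many of these mRNAs begin with a run of pyrimidines, the 5′ terminal oligopyrimidine (TOP) motif, through which growth signals control their translation. Mammalian genomes also carry many processed copies of these genes, and a few such copies are active genes of their own.

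Library depth ranged from 31774656 to 46772996 reads assigned to genes. All 10 pluripotency markers of a list were detected, and their summed level was 6022 to 11896 CPM (reads per 1e6 assigned reads). Primitive endoderm markers were lower in both mutants. Thap1 itself stood at 433 and 701 normalized counts in the WT libraries, at 2253 and 2533 in those of C54Y, and at 1975 and 1687 in those of KO. These values cover the whole gene, so they do not check the loss of exon 2. The libraries with replicate number 2 stood apart from those with number 1 in every genotype. Over all 15287 genes tested, deviations from the genotype mean correlated at 0.869 to 0.907 between libraries of the same number. Each comparison of genotypes is therefore given with and without the replicate number as a block. With the block, p-values rest on how far genotype differences vary between the numbers, with a pairing inferred from these same data. The median residual SD of the ribosomal protein genes was 0.938 without the block and 0.0737 with it.

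Promoter sequences were found in the RefSeq table of GRCm38.p6 for 64 of the 85 genes, with 76 start sites in all. The windows below run from 60 bases before to 20 bases after the annotated start on the sense strand. Rplp2 and Rpl28 are shown as genes with a high replicate difference and a TOP start. Rpl22l1 is the gene that went the other way. Rpl10, Rps4x, Rpl39 and Rpl36a are the X-linked genes, and Rpl39l is the paralog with the largest genotype difference. Capitals mark a TOP run at the start (Rplp2, Rpl28), the complement of the YY1 motif AANATGGC (Rpl28), TATAAA or its complement (Rpl22l1, Rpl36a) and the complement of the ETS motif CCGGAA (Rpl39l).
Rplp2 (chr7:141447591-141447670, plus strand): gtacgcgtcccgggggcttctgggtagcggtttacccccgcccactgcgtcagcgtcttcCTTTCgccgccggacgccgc
Rpl28 (chr7:4792905-4792984, plus strand): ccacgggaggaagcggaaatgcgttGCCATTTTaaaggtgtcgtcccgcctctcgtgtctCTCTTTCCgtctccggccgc
Rpl22l1 (chr3:28805448-28805527, plus strand): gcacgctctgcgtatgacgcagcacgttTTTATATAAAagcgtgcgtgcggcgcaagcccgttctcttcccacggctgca
Rpl10 (chrX:74270756-74270835, plus strand): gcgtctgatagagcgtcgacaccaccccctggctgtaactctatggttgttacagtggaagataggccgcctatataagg
Rps4x (chrX:102189372-102189451, minus strand): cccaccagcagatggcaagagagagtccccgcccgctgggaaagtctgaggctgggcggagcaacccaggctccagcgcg
Rpl39 (chrX:37085203-37085282, minus strand): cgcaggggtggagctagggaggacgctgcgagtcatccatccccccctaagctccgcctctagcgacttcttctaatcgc
Rpl36a (chrX:134585594-134585673, plus strand): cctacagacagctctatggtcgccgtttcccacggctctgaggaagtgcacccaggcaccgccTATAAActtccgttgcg
Rpl39l (chr16:10170168-10170247, plus strand): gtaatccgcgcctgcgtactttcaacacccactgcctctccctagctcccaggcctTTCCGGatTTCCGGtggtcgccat

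In the 300 bases from 250 before to 50 after the start, the ETS motif CCGGAA stood in 46.1% of the ribosomal protein promoters and in 14.9% of all 32851 promoters of the table. The YY1 motif AANATGGC stood in 22.4% against 6.05%. A TOP start, C followed by 4 or more of C or T on the sense strand, was found in 17.1% against 2.51%. A C followed by 6 or more of C or T that began within 20 bases of the annotated start was found in 38 of the 76 (21.2% of all), a count added after the first was seen. The THAP1 motif TNNGGGCA was found in 11.8% of the ribosomal protein promoters and 13.9% of all, and the genes with it were Rpl3l, Rpl6, Rpl10a, Rpl11, Rpl12, Rplp2, Rps3a1, Rps4x and Rps27l. TATAAA stood in 9.21% against 13.6%. Except for the pyrimidine runs, both strands were searched, and a match describes letters and not binding.

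Levels per length of the subunit genes were similar between the quartiles but had a wide range. Means over 6 libraries were taken for 73 subunit genes with an annotated transcript, leaving out Rpl30, Rpl34 and Rps27. Their median was 83028 normalized counts per kilobase, with quartiles at 62255 and 110721, a ratio of 1.78. The lowest of the 73 stood at 18417 per kilobase. Rplp1, an acidic stalk protein that helps recruit elongation factors, was highest at 259992 per kilobase. It was highest in each of the 6 libraries. Rpl41, the smallest protein of the ribosome, and Rps2, near the mRNA entry channel, had means of 199779 and 199273, but their order depended on the replicate number. Rps2 stood above Rpl41 in the 3 replicate 1 libraries (106110 against 87935 per kilobase in WT) and below it in the 3 of replicate 2 (254812 against 275299 in WT). The median was 93594 per kilobase for 30 small-subunit genes and 70504 for 43 large-subunit genes.

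Rpl30, Rpl34 and Rps27 stood far below the other common subunit genes. Rpl30 had 23.2 and 83.6 normalized counts in WT, 19.7 and 58.5 in C54Y, with 24.3 and 96.7 in KO. Rps27 had 29.9 and 66.9 in WT, 32.6 and 87.0 in C54Y, with 41.7 and 78.9 in KO. Rpl34 had 59 to 119.7 over the 6 libraries. Per kilobase, the means were 89.5 for Rpl30, 163 for Rps27 and 201 for Rpl34. Of the 85 genes, Rpl3l alone, a heart and muscle paralog of Rpl3, was lower, at 64.9. Among annotated transcripts, 77 of the 84 genes with a transcript have at least 1 copy under another gene name. A copy matches 95% or more over at least 80% of the coding sequence, and the genome itself was not searched. The median is 4.5 such copies, Rpl30 has 12 and Rpl21 has 57. How reads that match a gene and its copies were counted is not given in the sources used here, so the level of a gene with copies is uncertain, and the part of the copies in these low values was not tested.

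The ribosomal protein genes took up a larger share of the reads in the libraries numbered 2. They made up 9.33% of assigned reads in WT, 9.33% in C54Y and 9.25% in KO for replicate 1. For replicate 2 the shares were 16.8% in WT, 17.5% in C54Y and 16.9% in KO. The 3 libraries of each number lay close together and the 2 sets did not overlap. The means were 9.31% ± 0.0462 (SD, n = 3) and 17.1% ± 0.379 (SD, n = 3), a ratio of 1.84. The exact two-sided permutation test gave p = 0.1, the smallest that 3 against 3 libraries allow. The widest 95% Wilson interval of a single library spanned 0.0264 percentage points, which covers counting error only. The genotypes differed by less than 1 percentage point within either number.

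**Figure D1:**
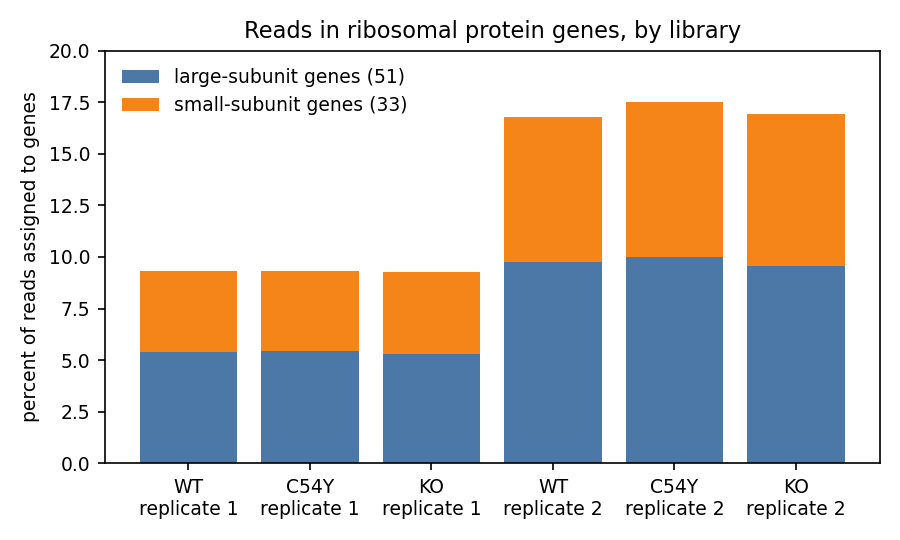
Percent of gene-assigned reads in the 51 large-subunit and 33 small-subunit genes, as stacked bars from 0, 1 bar per library. The 3 bars of replicate 1 stand at 9.25% to 9.33% and the 3 of replicate 2 at 16.8% to 17.5%, in every genotype.

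The reads were split between the subunits in nearly the same way throughout. Large-subunit genes had 1.38, 1.39 and 1.35 times the reads of small-subunit genes in replicate 1 of WT, C54Y and KO, and 1.38, 1.33 and 1.29 times in replicate 2. The means differed by less than 0.05, with an exact two-sided permutation p = 0.2, and the values of the 2 numbers overlapped. In both numbers KO had the lowest ratio of the 3 genotypes. The 45S ribosomal RNA precursor Rn45s took between 0.472% and 0.600% of the reads of replicate 1 libraries, and between 1.49% and 2.05% of those of replicate 2.

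Gene by gene, 84 of the 85 differed between the replicate numbers at an adjusted p under 0.05 (limma on log2 of the normalized count plus 2, genotype in the model, Benjamini-Hochberg over all 15287 genes). In replicate 2, 83 were higher, where 32% of all genes tested were called higher, and 1 was lower, where 32.8% were. The median difference was 1.33 on the log2 scale, or 2.51-fold, against 0.01 over all genes. It was 2.52-fold in WT, 2.57-fold in C54Y and 2.43-fold in KO. For 81 genes all 3 libraries of replicate 2 lay above all 3 of replicate 1 (95.3% against 29.7% of all genes), and for 1 gene they lay below (1.18% against 31.4%). When reads were scaled to equal library totals, the median over all genes moved to -0.36 and that of the ribosomal protein genes to 0.95. This scaling multiplies all genes of a library by the same factor. It shifts both medians nearly alike, so it could not change their distance and is no test of it.

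The stalk showed the pattern clearly. Rplp1 had 56286, 62262 and 70103 normalized counts in replicate 1 of WT, C54Y and KO, and 182261, 189333 and 218170 in replicate 2. Every replicate 2 library was at more than 2.5 times the highest level of replicate 1, and the log2 difference was 1.65 ± 0.07 (SE, limma adjusted p = 6.01e-07). Rplp2, its partner in the stalk, had 22741, 22120 and 23374 in replicate 1 and 73303, 75663 and 84106 in replicate 2, a log2 difference of 1.77. Rplp0, which anchors both to the large subunit, differed by 1.36.

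Small-subunit genes behaved alike, and all 33 were called higher in replicate 2. Rps15, a protein of the small-subunit head, had 27607, 30026 and 29569 normalized counts in replicate 1 of WT, C54Y and KO and 88327, 95488 and 104605 in replicate 2 (log2 difference 1.72 ± 0.08, SE, limma adjusted p = 6.4e-07). Rps6, the substrate of the S6 kinases, differed by 1.33, Rpsa, which doubles as a laminin receptor, by 1.44, and Rps19, the gene most often mutated in Diamond-Blackfan anaemia, by 1.58. The sets of libraries did not overlap for Rps15 or Rplp1.

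At the other end stood Rpl22l1, a paralog of Rpl22 and the only gene lower in replicate 2. It had 4227, 3964 and 3848 normalized counts in replicate 1 of WT, C54Y and KO and 3180, 3658 and 2608 in replicate 2, lower in 3 of 3 genotypes. The log2 difference was -0.36 ± 0.13 (SE, limma adjusted p = 0.0307), and without WT replicate 1, WT replicate 2 or C54Y replicate 2 the call was lost. Rpl5, which binds 5S ribosomal RNA with Rpl11 and holds Mdm2 when ribosome assembly fails, differed by only 0.36 and had 65808 and 65556 in KO, with no difference there. Rpl11 differed by 1.22. The other small differences were those of Rpl21 (0.39), Rps3a1 (0.50) and Rpl4 (0.52).

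**Figure D2:**
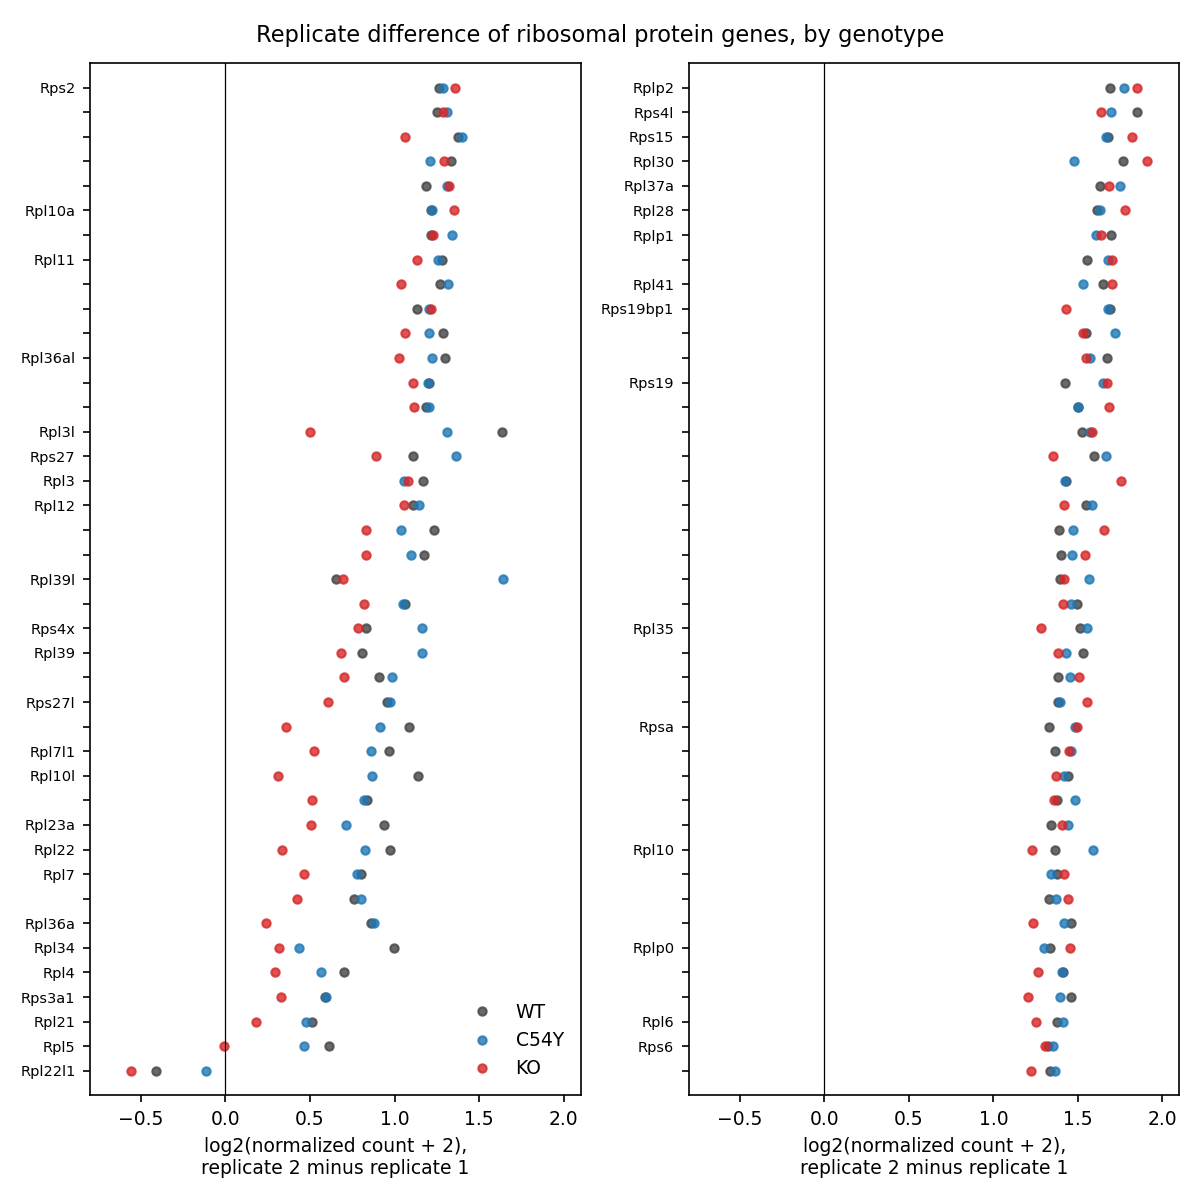
Difference between replicate 2 and replicate 1 for 82 of the genes on the log2(normalized count + 2) scale, 1 point per genotype, sorted by the mean from bottom left to top right. Names are given for genes described in the text. All 3 points of Rpl22l1 lie below 0, the KO point of Rpl5 lies at 0, and Rplp2 is at 1.77 on average.

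The size of the replicate difference moved with the base composition of the transcript. Transcripts of the ribosomal protein genes held between 40.6% and 60.8% G and C, with a median of 51.7% (51.2% over all genes tested), and were short, with a median of 740 bases against 2766. Across 84 of these genes the mean log2 difference between replicate numbers had a Pearson correlation of 0.60 and a Spearman correlation of 0.58 with GC content. Across 13858 genes tested the values were 0.62 and 0.59. In both cases the points share the same 6 libraries and genes are not independent. With length the Pearson correlation was -0.18 for ribosomal protein genes and -0.38 for all. When the genes were ranked by GC content and cut into 3 sets of 28, the median difference was 0.91 in the lowest set, 1.35 in the middle and 1.44 in the highest. Rpl22l1 has the lowest GC content of all, 40.6%, and Rpl5 has 42.7%. The part of base composition in the difference was not tested.

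Genes of the same pathway were also higher in replicate 2, though not all. The counts below stand against 32% of all genes tested called higher and 32.8% called lower. Of the subunit genes with other names, Fau and Gnb2l1 were called higher, with log2 differences of 1.59 and 1.13. Mitochondrial ribosomal protein genes, whose products form the separate ribosome of mitochondria, were called higher in 69 of 77 cases and lower in 2, with a median of 1.24. Of 14 translation factors and other TOP mRNAs, 9 were called higher and 4 lower. Npm1, a nucleolar chaperone, was among the lower ones at -1.38, and Eef1a1, the most abundant elongation factor, differed by 0.39. Of 29 ribosome biogenesis genes, 18 were called higher and 8 lower, of 10 genes for RNA polymerase I and its factors 8 and 2, and of 17 growth and stress regulators 6 and 8. Of 11 fibroblast markers tested, 7 were called higher and 0 lower. The summed level of the 12 markers of that list was 69.5 to 195 CPM in replicate 1 and 341 to 392 in replicate 2, with Lum at 0 in 5 libraries. The share of feeder fibroblasts in the replicate difference was not tested. In bulk samples, a change in the number of cells of a type and a change in RNA per cell cannot be told apart.

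KO cells had more mRNA of several X-linked ribosomal protein genes and their relatives than WT cells, while the bulk of the ribosomal protein genes differed little. With the group alone in the model, limma and edgeR called 0 of 85 genes and 0 of all genes tested (0%). DESeq2 also called 0 of the 85, while it called 235 over all genes (149 higher). Rpl39l alone had an unadjusted p under 0.05, and the smallest adjusted p was 0.589. With the replicate number as a block, 9 were called higher (10.6%, against 8.9% of all genes tested) and 0 lower (against 7.41%), a share near the background. The median over the 85 genes was 0.11 on the log2 scale against 0.03 over all genes. With reads scaled to equal library totals these medians became -0.03 and -0.11, so the sign of the small median depends on the scaling. In 52 genes KO was above WT in both numbers, against 36.1% of all genes tested, and in 6 it was below in both, against 29.5%. Over the same libraries, 5 of 10 pluripotency markers were called higher in KO and 8 of 9 primitive endoderm markers lower with the block. Called lower were also 3 of 5 mesoderm markers, 2 of 5 neuroectoderm markers (1 was higher), 1 of 5 trophectoderm markers and 2 of 11 fibroblast markers. The median log2 differences were -1.80, -0.94, -2.30 and -0.68 for these 4 lists. Summed fibroblast markers stood at 195 and 344 CPM in replicates 1 and 2 of WT and at 69.5 and 341 in KO, and summed trophectoderm markers at 867 and 398 against 29.6 and 106. The keratin genes Krt8 and Krt18 dominate the trophectoderm sum. They had 15325 and 11525 normalized counts in WT replicate 1, against 187 for Eomes, 22.4 for Cdx2 and 0.747 for Elf5. Of these 5 markers, 2 had a positive log2 difference of KO from WT. The part of other cell types in the results on ribosomal protein genes was not tested.

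Of the 9 genes called with the block, 3 are X-linked and 3 are autosomal paralogs of X-linked ribosomal protein genes. The same 6 were called by edgeR, by DESeq2 and with equal library totals when each had the block. Over all 15287 genes tested, these settings called 1085, 1360 and 939 higher. The 4 X-linked genes Rpl10, Rps4x, Rpl39 and Rpl36a took 4.87% and 4.10% of the ribosomal protein reads in replicates 1 and 2 of WT, 5.41% and 5.42% in C54Y, with 7.38% and 5.89% in KO. Both shares of each mutant lay above both of WT. Within the same number, KO was above C54Y as well.

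Rpl10, which completes the large subunit late in its maturation, had 43612 and 112298 normalized counts in WT, 52441 and 158040 in C54Y, with 83816 and 196270 in KO, in the order of replicates 1 and 2. It ran in the order WT, C54Y, KO within each number, while the groups overlapped across numbers. The difference of KO from WT was 0.87 ± 0.11 on the log2 scale, 1.83-fold (SE, blocked limma adjusted p = 0.00159). Rps4x, a small-subunit protein whose gene escapes X inactivation in humans but not in mice, had 60873 and 108240 in WT, 64582 and 144573 in C54Y, with 94471 and 162686 in KO. Its difference of 0.61 ± 0.11 had a blocked limma adjusted p of 0.00782. Rpl39, a small protein that lines the peptide exit tunnel, was again ordered WT, C54Y, KO, with 21271 and 37287, 24429 and 54580, and 34912 and 56119, a difference of 0.65 (blocked limma adjusted p = 0.0117). Rpl36a was higher in KO by 0.78 in replicate 1 and by 0.16 in replicate 2, and was not called (0.47, blocked limma adjusted p = 0.0801).

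These differences were close in size to those of other genes on the X chromosome. The 4 X-linked ribosomal protein genes had a median KO difference of 0.63, and the other 563 X-linked genes tested had 0.59, of which 186 were called higher and 19 lower with the block, where 8.9% and 7.41% of all genes tested were. The median over the 81 autosomal ribosomal protein genes was 0.10. In C54Y, the 4 X-linked genes differed from WT by a median of 0.31 and the other X-linked genes by 0.25. The part of the X chromosome as a whole in these differences was not tested.

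Autosomal paralogs of the X-linked genes did not all go the same way. Rpl39l, which replaces Rpl39 in germ cells, had 67 and 62 reads in WT, 237 and 391 in C54Y, with 308 and 342 in KO. Normalized counts ran from below 80 in both WT libraries to between 161 and 508 in the mutants. Both libraries of each mutant lay above both WT libraries. Against WT, this held for 2 genes in KO, Rpl39l and Rpl10l (2.35%, against 13.6% of all genes tested), and for Rpl39l alone in C54Y (1.18%, against 9.3%), and no gene lay below in this way (13.6% and 8.69% of all). The log2 difference of KO from WT was 2.40 ± 0.30, 5.26-fold (SE, blocked limma adjusted p = 0.0018), and Rpl39l is the ribosomal protein gene with the largest rise. It still had under 1% of the normalized counts of Rpl39 in every library, 0.214% to 0.235% in WT, 0.660% to 0.931% in C54Y and 0.766% to 0.776% in KO. The coding sequences of the pair are 85.3% identical over 156 bases.

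Rpl10l, the intronless copy of Rpl10 best known from spermatocytes, had 214 and 475 normalized counts in WT, 358 and 655 in C54Y, with 674 and 835 in KO. Both KO libraries exceeded every WT and C54Y library. Against C54Y, Rpl10l was the 1 gene of which this was true (8.64% of all genes tested), and 0 lay below (8.84%). The difference from WT was 1.23 ± 0.23, 2.34-fold (SE, blocked limma adjusted p = 0.00989). Its count was 0.492% and 0.423% of that of Rpl10 in WT and 0.804% and 0.425% in KO, so the ratio to Rpl10 was higher in KO in replicate 1 and nearly equal in replicate 2. Rps4l, which the annotation lists as a transcribed pseudogene of Rps4x, rose by 0.54, but without WT replicate 1 the blocked limma adjusted p became 0.0934. Rpl36al, on chromosome 12, had 7990 and 19667 normalized counts in WT and 8556 and 17451 in KO, a difference of -0.04 (blocked limma adjusted p = 0.879). It stood at 49.5% and 67.0% of the counts of Rpl36a in WT and at 30.8% and 53.1% in KO. The coding sequence was 84.8% identical to that of the X-linked gene for Rpl10l and 87.85% for Rpl36al. For Rps4l no identity was obtained. Reads that match both genes of a pair may have been split between them, which was not tested.

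**Figure D3:**
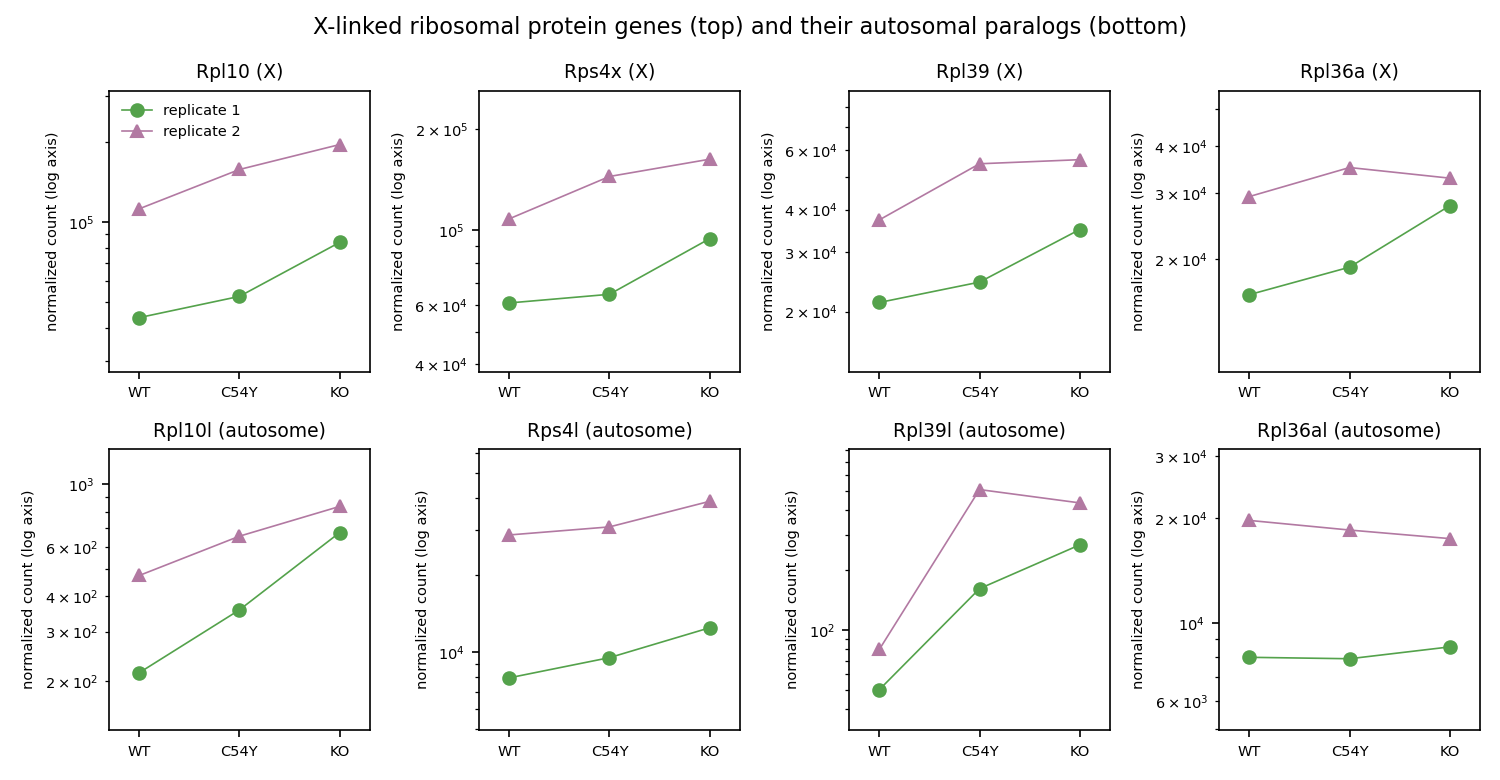
Normalized counts of the 4 X-linked ribosomal protein genes (top) and their autosomal paralogs (bottom) in WT, C54Y and KO on a log axis, 1 point per library with lines joining the libraries of 1 replicate number. Rpl10, Rps4x and Rpl39 run in the order WT, C54Y, KO in both numbers, Rpl39l is higher in all 4 mutant libraries, and Rpl36al was not called.

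Called genes outside these 6 had small differences. Rps2 rose by 0.31, with 105897 and 254302 normalized counts in WT and 127271 and 325694 in KO. Rpl37a, a zinc-binding protein of the large subunit, rose by 0.38. Their blocked limma adjusted p-values were 0.0298 and 0.037. In blocked fits by edgeR, by DESeq2 and with equal library totals, neither was called. With the block and all libraries, 9 of the 85 were called in either direction (10.6%, against 16.3% of all genes tested). The number called changed when single libraries were left out, for the 85 genes and over all genes tested. Such a fit leaves 1 group with 1 library, so only medians are given here. Without KO replicate 1, KO stood on replicate 2 alone. The blocked median difference of KO from WT was then 0.103 for the 85 genes and -0.0238 over all genes. Without KO replicate 2 the medians were 0.136 and 0.106. They were 0.113 and -0.0101 without WT replicate 1, and 0.121 and 0.0866 without WT replicate 2. Without either C54Y library they stayed at 0.112 and 0.0284.

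**Figure D4:**
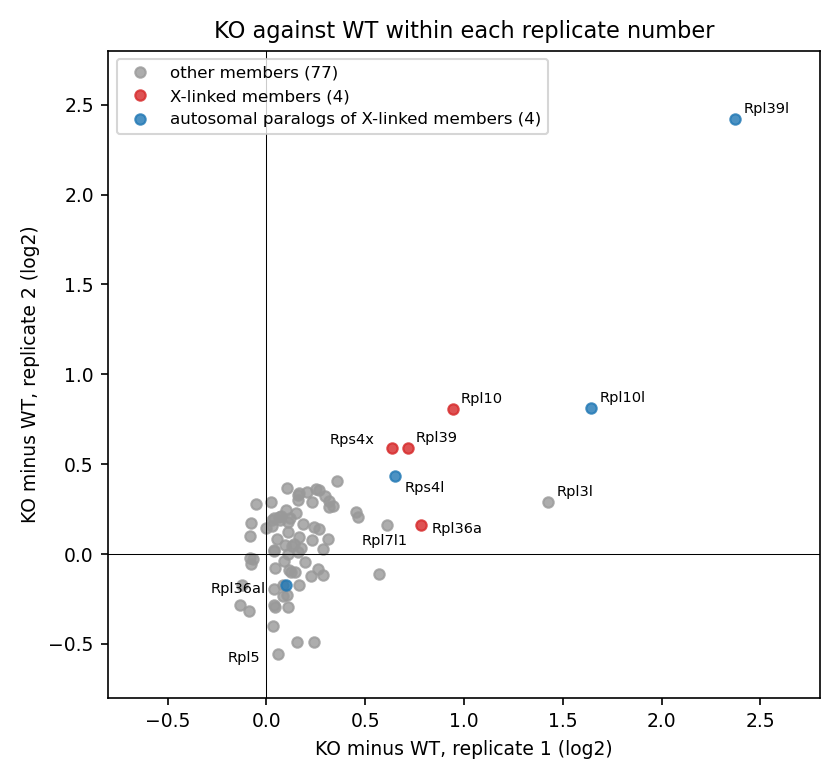
Difference of KO from WT on the log2(normalized count + 2) scale in replicate 1 (horizontal) and replicate 2 (vertical), 1 point per ribosomal protein gene. Most of the 77 other genes lie near 0 on both axes, with a wider vertical spread, while 3 of the 4 X-linked genes and Rpl39l, Rpl10l and Rps4l are above 0.4 on both.

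Among the autosomal subunit genes, differences of KO from WT were small in replicate 1 and wider in replicate 2. Over 69 such genes with more than 1000 reads, the SD of the log2 differences across genes was 0.12 in replicate 1 and 0.23 in replicate 2, while over all genes tested it was 0.92 and 0.80. The largest negative value was that of Rpl5, with 63195 and 96446 normalized counts in WT, 60702.5 and 83628 in C54Y, with 65808 and 65556 in KO. KO was above WT by 0.06 in replicate 1 and below it by a log2 difference of -0.56 in replicate 2. The combined value of -0.25 was not called (blocked limma adjusted p = 0.267). Rpl22, Rpl23a and Rpl35 also combined to negative values, -0.17, -0.19 and -0.20, none called. The wider spread in replicate 2 moved with GC content, with a Pearson correlation of 0.52 over the 69 genes, against 0.04 in replicate 1. Over the 84 ribosomal protein genes with a transcript it was weaker, 0.18 against -0.07 (Spearman 0.39 and -0.01). Over all genes the Pearson correlations were 0.16 and -0.14. For C54Y against WT, which shares the WT libraries, the 69 genes had correlations of 0.39 in replicate 2 and 0.30 in replicate 1. The 84 genes had Pearson correlations of -0.04 and 0.03 (Spearman 0.23 and 0.22). Over all genes the C54Y values were -0.03 and 0.02. The part of base composition in these values was not tested.

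**Figure D5:**
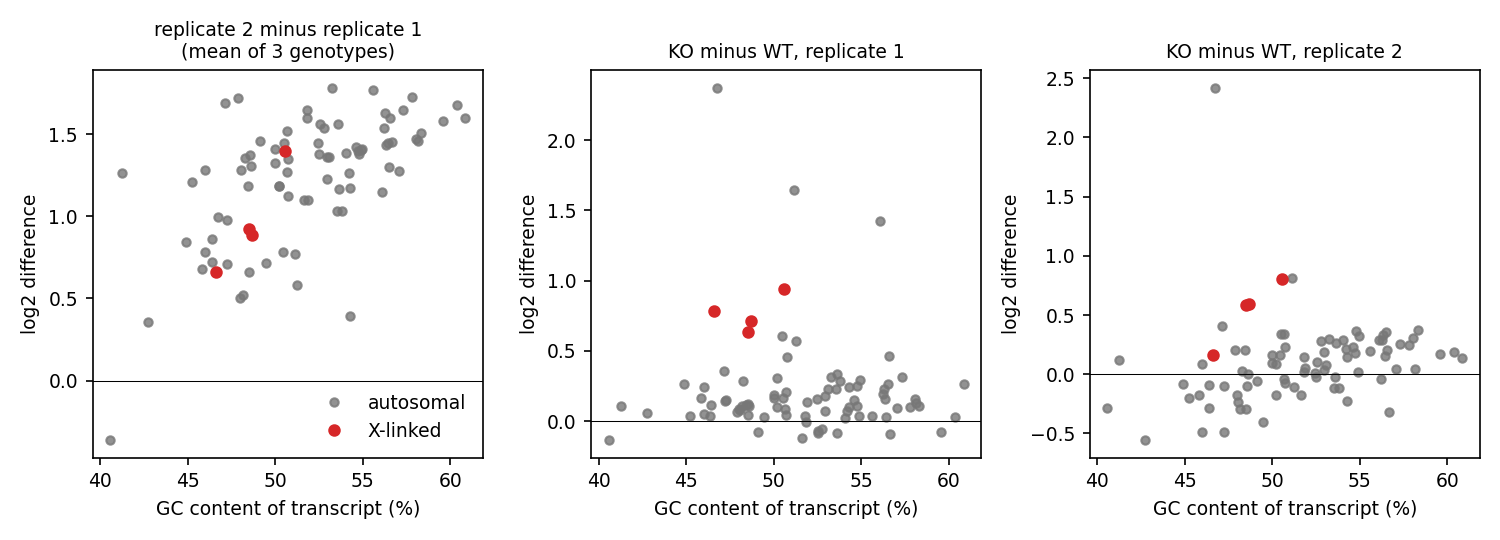
GC content of the transcript (percent, horizontal) of 84 ribosomal protein genes against 3 log2 differences: replicate 2 from replicate 1 (left), and KO from WT in replicate 1 (middle) and in replicate 2 (right), with X-linked genes in red. The left panel slopes upward from Rpl22l1 at 40.6% GC, the middle panel is flat, and autosomal genes in the right panel rise from below 0 at low GC to above 0 at high GC.

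Between C54Y and WT cells, Rpl39l was the ribosomal protein gene called with the block. With the group alone, limma, edgeR and DESeq2 each called 0 of 85 (0% of all genes tested by limma, 28 genes by DESeq2), and Rpl39l alone had an unadjusted p under 0.05. With the block, 1 was called higher, Rpl39l (1.18%, against 0.962% of all genes), and 0 lower (against 0.399%). Its log2 difference was 2.14 ± 0.30, 4.42-fold (SE, blocked limma adjusted p = 0.0124), and it was not called when C54Y replicate 2 was left out. The next largest differences were 0.60 for Rpl10l, 0.58 for Rpl3l, 0.38 for Rpl10 and 0.37 for Rpl39, none called. The lowest was -0.36 for Rpl30, which rests on 29 to 65 reads per library in these 2 groups. The median was 0.04 against 0.00 over all genes. When either KO library was left out the count was 5, or 5.88%, while over all genes tested the share called went to 11.9% without KO replicate 1 and 10.6% without KO replicate 2. The KO and C54Y comparisons share the WT libraries.

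Between KO and C54Y no ribosomal protein gene was called, with the group alone or with the block, by limma, edgeR or DESeq2 (0% and 0.19% of all genes by limma, with the block 0.0458% higher and 0.144% lower). Over all genes, edgeR called 0 with the group alone and 29 with the block. DESeq2 called 3 with the group alone and 452 with the block, 188 of these higher. With the block, 11 had an unadjusted p under 0.05. The smallest adjusted p was 0.0926 by blocked limma, for Rpl10, which was 0.49 higher in KO. Rpl10l was 0.63 higher, Rps19bp1 0.44 and Rpl7l1 0.37, and Rpl22l1 had a difference of -0.27. The median over the 85 genes was 0.07, and -0.07 with equal library totals, while over all genes it was 0.03 and -0.11. Without KO replicate 2, so that KO stood on replicate 1 alone, 8 genes were called higher with the block, 9.41% against 9.47% of all genes tested, so the share was at the background. Without KO replicate 1 there were 3 (1 higher, 2 lower; 3.53% against 5.97% of all genes), without WT replicate 1 there were 2 (against 5.4%), and without WT replicate 2 there was 1 (against 3.35%).

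The remaining paralogs and their parents shifted against each other. Rpl22l1 had 20.4% of the normalized counts of Rpl22 in WT replicate 1 and 7.82% in replicate 2, and this drop between numbers was seen in C54Y (19.3% and 10.1%) and KO (16.7% and 8.99%). Rpl22 itself was higher in replicate 2 by 0.71, so the pair moved in opposite directions. Rps4l rose against Rps4x between numbers, from 13.1% to 26.5% in WT, 14.7% to 21.3% in C54Y and 13.2% to 23.8% in KO. Rpl7l1, a pre-ribosome factor related to Rpl7, stood at 11.3% to 16.0% of Rpl7, highest in KO in both numbers. Rps27l, a p53 target related to Rps27, had 6386 to 13309 normalized counts, above the count of Rps27 in every library. Rps27 is among the low genes described above. The part of copies in its low level was not tested, so this order is uncertain. Rps27l was 0.85 higher in replicate 2. These ratios are of counts and not per length.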

How the data were processed

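Per the submitters' processing notes, CASAVA, Trimmomatic, TopHat2 2.1.0, HTSeq, DESeq2 and build mm9 were used. Strand, annotation and the treatment of reads with several matches are not given in the sources used here. The authors deposited a signal value per gene and library, a count divided by a library size factor. Dividing each column by its smallest step gave whole numbers for 100% of values (tolerance 1e-06), so reads were recovered. Genes with at least 10 in 2 of 6 libraries were tested in R 4.3.3 with limma 3.58.1 (robust trend) on log2(value + 2), which understates changes of low genes, with Benjamini-Hochberg adjustment at 0.05. edgeR 4.0.16 and DESeq2 1.42.0 on recovered reads were alternatives, with pseudocounts 0.5 and 8, no filter, equal library totals and each library left out. The replicate number was an alternative block. Pairing rests on correlated deviations (0.869 to 0.907) and not on the labels. Named genes were the paralogs with their parents, stalk and other fixed genes, the 5 largest differences each way, called genes, and the 3 highest and lowest levels. Rps2, Rpl37a and Rpl36a were added after their values were seen. Genes and lists were chosen with earlier results of these data known. Some genes enter the counts and medians but are not reported here by name. Fits were tested on simulated data. Transcripts are from GENCODE M21, promoters and chromosomes from RefSeq GRCm38.p6, whose build differs from the files'.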

Additional observations from a re-analysis of the deposited data

How the results depend on the processing

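The 83 higher calls between replicate numbers became 82 with edgeR, 83 with DESeq2 and 76 with equal library totals, and 80 to 85 genes were called in either direction as single libraries were left out. Over all genes, 4899 higher calls became 4363 with edgeR and 4640 with DESeq2. The share of all genes called in either direction was 53.2% to 68.5% as single libraries were left out. The median of 1.33 became 1.22 with edgeR and 0.947 with equal totals, where Rpl5 turned to -0.024. The median over all genes moved too, from 0.0147 to -0.0917 with edgeR, and with equal totals as described above. The share difference of 7.79 percentage points ranged from 7.57 to 7.93 without single libraries.

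For KO against WT, 0 called genes became 9 with the replicate block, 9 with the block and either pseudocount, 8 with the block and no filter, and 6 with the block in edgeR, DESeq2 or equal totals. Over all genes, 0 calls became 2494 with the block, 1361 of them higher. They became 2403 and 2504 with pseudocounts 0.5 and 8, and 2452 with no filter. Blocked edgeR, DESeq2 and equal totals called 2427, 2522 and 2456, of which 1085, 1360 and 939 were higher. The median of 0.112 was 0.0439 with edgeR, 0.0283 with edgeR and the block, and -0.0312 with equal totals, with or without the block. In the same order, the all-gene median of 0.0284 became -0.0180, -0.0489 and -0.113. For C54Y against WT the block gave 1 call under each of these settings, and the median of 0.0357 was 0.0196 with edgeR and 0.0130 with edgeR and the block. Over all genes the blocked calls were 208 by limma, 198 by edgeR, 479 by DESeq2 and 191 with equal totals. They were 193 and 186 with pseudocounts 0.5 and 8, and 210 with no filter. The median over all genes was -0.00206, with edgeR -0.0309, and with edgeR and the block -0.0259. For KO against C54Y the block gave 0 calls under each of these settings, and equal totals gave a median of -0.0685. Over all genes the blocked calls were 29 by limma, 29 by edgeR, 452 by DESeq2 and 31 with equal totals. They were 22 and 21 with pseudocounts 0.5 and 8, and 32 with no filter. With equal totals the median over all genes was -0.106.

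With libraries left out, calls ranged from 0 to 25 for KO against WT, 0 to 5 for C54Y against WT and 0 to 8 for KO against C54Y. At these highest counts the share called was 29.4%, 5.88% and 9.41%, against 26.4%, 10.6% to 11.9% and 18.5% of all genes tested. Medians ranged from -0.534 to 0.804, -0.612 to 0.728 and -0.570 to 0.780. The extreme medians come from fits without the block, where a left-out library leaves the replicate numbers unbalanced. With the block, differences that changed sign included Rpl22 (-0.449 to 0.115) and Rpl5 (-0.520 to 0.0215) for KO against WT, Rpl5 (-0.323 to 0.0589), Rpl23a (-0.276 to 0.0550) and Rps27a (-0.208 to 0.00444) for C54Y against WT, and Rpl35 (-0.243 to 0.00844) and Rpl5 (-0.388 to 0.153) for KO against C54Y. None of these was called with all libraries. A group left with 1 library is assumed to vary like the others. The calls of Rpl5 and Rpl21 between replicate numbers were lost without some libraries (limma adjusted p up to 0.111 and 0.0727). Having 2 libraries a group and 2 residual degrees of freedom with the block limit what could be detected.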
